A study of Mus musculus with 12 samples.

Results

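The 4 h stimulation response of Treg that lack Ikaros was taken from 6 of the 12 RNA-seq libraries of the series, namely 3 libraries of stimulated Ikzf1 conditional knockout (cKO) Treg and 3 of unstimulated cKO Treg. Libraries were assigned to these groups by their labels alone. Of the 36222 genes in the expression table, the 13318 whose highest mean over the 4 groups was at least 5 TPM (transcript abundance per gene length, scaled to the same total in each library) were tested, and all levels below are TPM rescaled on these genes ("scaled TPM"). The cKO mice carry loxP-flanked Ikzf1 alleles and a YFP-Cre fusion expressed from the Foxp3 locus, so that Cre acts in cells that express Foxp3. The WT mice carry the same YFP-Cre without the loxP-flanked alleles. CD4+ T cells of individual mice, from spleen per the labels, were sorted for YFP, and RNA was taken either directly after sorting (ex vivo) or after 4 h on plate-bound anti-CD3 and anti-CD28 (stimulated). The study describes age-matched young adult mice for the ex vivo cells, and the labels give no batch. No Treg cultured for 4 h without antibody was among the groups, so the effect of the antibodies and that of 4 h in culture cannot be told apart.

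Ikaros, encoded by Ikzf1, is a zinc finger DNA-binding protein of lymphocytes that recruits chromatin remodelling and histone deacetylase complexes and can repress or activate its targets. Regulatory T cells express the transcription factor Foxp3 and restrain other T cells. When the T cell receptor (TCR) and CD28 are engaged, calcium and NFAT, Ras and MAP kinases with AP-1, and NF-kB are activated. A burst of immediate early transcription follows, then feedback inhibitors and cytokine genes, while genes of the resting state such as Klf2 and S1pr1 are shut off.

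The targeted gene was checked first. Ikzf1 (chr11:11585006-11672929, mm9) was at 42.1, 33.0 and 38.4 scaled TPM in the ex vivo cKO libraries and between 23.3 and 30.1 in the stimulated ones. In the WT libraries it was at 113.5, 103.6 and 113.0 ex vivo and at 66.7, 71.1 and 68.9 after stimulation, so each cKO library lay below each WT library. Reads still counted on the gene in cKO cells do not show whether they include the deleted exons. The labelled cell type was checked too. Each of the 6 T cell and Treg markers (Cd3d, Cd3e, Cd3g, Cd4, Cd5, Foxp3) reached 5 TPM, and their sum went from 1687.3 to 1904.5 scaled TPM ex vivo and from 965.2 to 1258.8 after stimulation. Of the B cell markers 2 of 8 reached 5 TPM (Cd79b, Cd22), with sums of 28.3 to 36.0 ex vivo and 27.8 to 44.2 stimulated. Of the myeloid markers 1 of 10 did (Cd68; 19.3 to 27.6 and 32.3 to 44.1), of the dendritic cell markers 0 of 6 (8.11 to 12.3 and 15.6 to 24.1), of the CD8 T and NK cell markers 1 of 7 (Cd8b1; 15.6 to 21.1 and 22.6 to 30.2) and of the erythroid markers 0 of 7 (4.57 to 9.62 and 9.17 to 17.4). Hba-a1 and Hba-a2 had at most 3 reads in every library. Low levels of the myeloid, dendritic and CD8 or NK lists were thus higher in every stimulated library (exact permutation test, two-sided, p = 0.1, the smallest that 3 against 3 libraries can give), and their part in the results was not tested.

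The stimulated cKO libraries held fewer reads on genes (9581479, 10930376 and 8208659) than the ex vivo cKO libraries (20247649, 13150349 and 18369101), so low genes are less precisely measured after stimulation. A single transcript, Gm10800, took 42.9%, 47.6% and 55.9% of all TPM in the stimulated libraries against 23.9%, 24.4% and 20.4% ex vivo (48.8% ± 6.58 against 22.9% ± 2.18, SD, n = 3 each, exact permutation test, two-sided, p = 0.1, the smallest that 3 against 3 libraries can give). The third stimulated cKO library stood apart, with the highest Gm10800 share and a scaling factor of 1.37. Genes that T cells do not use gave a floor that also differed: the median of 1716 olfactory and vomeronasal receptor genes was 0.538, 0.964 and 0.666 scaled TPM ex vivo and 1.09, 0.857 and 1.44 stimulated. The scaled values are relative to the other tested genes, and in sorted bulk cells fewer cells of a type and less RNA per cell cannot be told apart.

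A large part of the transcriptome of cKO Treg differed between the stimulated and the ex vivo libraries. At an adjusted p under 0.05 (limma on log2(scaled TPM + 1), Benjamini-Hochberg over 13318 genes) 5835 genes were called, or 43.8%. Of these, 2305 were higher after stimulation (17.3% of the genes tested) and 3530 were lower (26.5%). The higher calls numbered 1425 without the first ex vivo library and 1518 without the third, and 558 on TPM as deposited. More than 2-fold changes, on the log2(scaled TPM + 1) scale used for every log2 change below, were found for 740 higher and 780 lower genes. The 3 stimulated libraries lay above all 3 ex vivo libraries for 3041 genes, or 22.8%, and below them for 4089, or 30.7%.

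The direction of change went with the level of the gene. Among the 1666 genes that reached a mean of 50 TPM in some group, 1106 fell and 122 rose, with a median log2 change of -0.62. Among the 2976 genes between 5 and 7 TPM, 764 rose and 61 fell, with a median of 0.47. The WT libraries showed medians of -0.41 and 0.24 in the same classes. With cyclic loess, which removes any trend of change with level, the cKO medians were -0.05 and -0.02 and the calls 471 higher and 558 lower among the high genes and 62 higher and 378 lower among the low genes. The sign of a modest change of an abundant or a weak gene thus differs with the scaling, and 3404 of the 5835 calls were made in the same direction with cyclic loess. The list counts below are given with both, to be read against 17.3% higher and 26.5% lower of all tested genes, and 17.8% higher and 19.6% lower with cyclic loess.

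**Figure D1:**
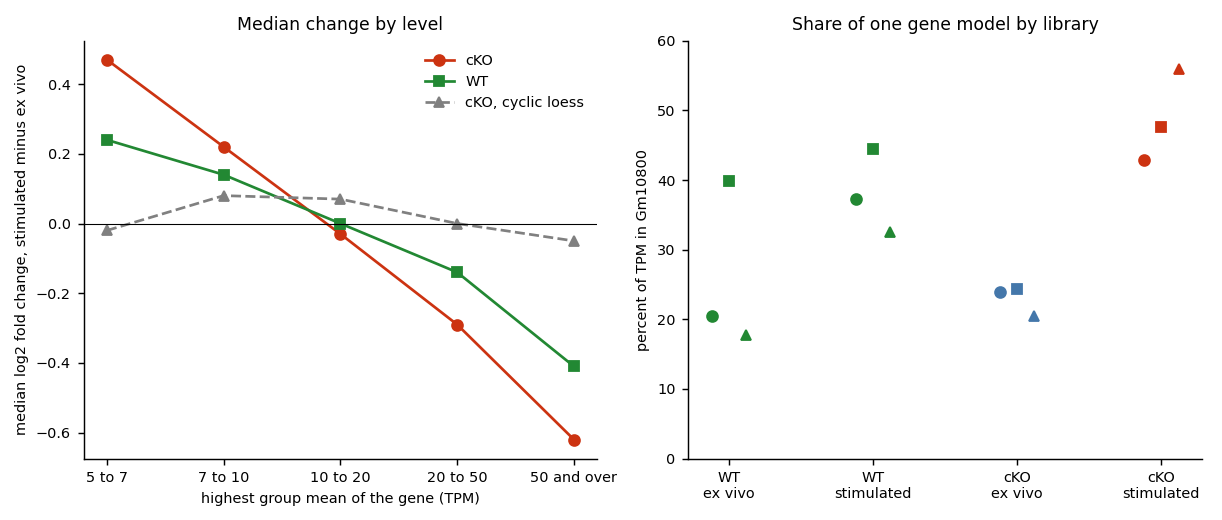
Left, median log2 change of cKO Treg, WT Treg and cKO Treg after cyclic loess in classes of genes by highest group mean TPM (x axis); the cKO median goes from 0.47 in the lowest class to -0.62 in the highest, and stays between -0.05 and 0.08 after cyclic loess. Right, percent of TPM in Gm10800 in each of the 12 libraries; the stimulated cKO libraries lie between 42.9% and 55.9%.

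The guanylate-binding proteins (GBP) and immunity-related GTPases (IRG), which attack the vacuoles of intracellular pathogens and are classical targets of interferon gamma, had the highest median change of the lists examined. Of 16 tested members 13 rose and 1 fell, with a median log2 change of 1.45 (0.92 to 1.84 over the other scalings, 13 higher and 0 lower with cyclic loess) against -0.01 over all genes tested. Since the family holds 6 of the 12 largest named rises, the regions 5′ of 6 start sites are shown here before the values. They are the 250 bases before the RefSeq start site (GRCm38.p6, gene strand, 5′ to 3′) of Gbp2 (chr3:142620413-142620662, plus strand), Igtp (chr11:58199306-58199555, plus strand), Irgm2 (chr11:58214727-58214976, plus strand), Tgtp1 (chr11:48992247-48992496, minus strand), Socs1 (chr16:10785537-10785786, minus strand) and, as a gene that fell, Isg15 (chr4:156200819-156201068, minus strand). Capitals mark GAAANNGAAA, the letters of the interferon-stimulated response element, searched on both strands; the first capital lies 59, 34, 64, 77, 83 and 78 bases before the start in that order.
Gbp2: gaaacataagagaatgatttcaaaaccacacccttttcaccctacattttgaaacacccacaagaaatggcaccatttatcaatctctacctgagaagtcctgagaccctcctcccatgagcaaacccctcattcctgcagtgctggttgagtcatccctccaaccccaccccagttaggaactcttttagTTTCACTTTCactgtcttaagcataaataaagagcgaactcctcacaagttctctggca
Igtp: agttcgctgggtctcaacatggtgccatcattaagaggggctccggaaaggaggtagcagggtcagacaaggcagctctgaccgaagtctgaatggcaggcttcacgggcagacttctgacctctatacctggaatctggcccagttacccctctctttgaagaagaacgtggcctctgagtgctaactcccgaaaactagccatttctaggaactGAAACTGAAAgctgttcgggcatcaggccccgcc
Irgm2: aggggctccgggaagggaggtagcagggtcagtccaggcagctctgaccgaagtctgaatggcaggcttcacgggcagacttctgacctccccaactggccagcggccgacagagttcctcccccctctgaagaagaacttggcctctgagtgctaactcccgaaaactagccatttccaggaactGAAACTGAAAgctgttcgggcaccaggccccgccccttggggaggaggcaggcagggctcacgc
Tgtp1: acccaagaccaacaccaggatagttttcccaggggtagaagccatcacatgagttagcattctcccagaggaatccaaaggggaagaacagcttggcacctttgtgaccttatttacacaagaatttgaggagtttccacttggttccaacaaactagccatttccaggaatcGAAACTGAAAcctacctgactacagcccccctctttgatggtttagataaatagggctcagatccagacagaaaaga
Socs1: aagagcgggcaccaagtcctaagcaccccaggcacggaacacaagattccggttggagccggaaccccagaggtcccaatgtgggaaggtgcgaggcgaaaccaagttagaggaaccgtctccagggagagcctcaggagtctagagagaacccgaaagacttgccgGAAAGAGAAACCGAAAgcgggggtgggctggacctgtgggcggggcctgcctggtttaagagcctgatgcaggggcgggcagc
Isg15: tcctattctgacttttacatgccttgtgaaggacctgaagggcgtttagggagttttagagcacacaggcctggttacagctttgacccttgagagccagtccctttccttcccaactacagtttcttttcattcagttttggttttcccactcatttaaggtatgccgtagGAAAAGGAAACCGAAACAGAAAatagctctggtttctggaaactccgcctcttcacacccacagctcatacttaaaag

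GAAANNGAAA was found in 9 of the 10 risen GBP and IRG genes with a RefSeq entry (Gbp2, Gbp3, Gbp5, Gbp7, Irgm1, Irgm2, Igtp, Tgtp1 and Tgtp2), against 978 of 32851 promoters of the same length, or 2.98%, and 235 of 7061 tested genes, or 3.33%. The letters TTCNNNGAA, those of the gamma-activated site, were found in 6 of these 10 genes (Gbp5, Gbp7, Irgm2, Igtp, Tgtp1, Tgtp2) and in 7.02% of all promoters; the 2 motifs share the letters GAA and can overlap. The genes are paralogs that lie in clusters and share sequence, so they are not independent counts, and a match is a description of the letters, not a bound site. No fallen or uncalled member of the family had an entry, so risen and other members could not be compared. In the list of SOCS and STAT genes the letters GAAANNGAAA were present in 3 of 7 risen (Socs1, Stat2, Stat4), 0 of 5 fallen and 0 of 5 uncalled genes with an entry. In that of type I interferon stimulated genes they were present in 1 of 4 risen, 5 of 11 fallen and 3 of 12 uncalled genes.

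Gbp2 (chr3:142283566-142300972, mm9), an interferon-inducible guanylate-binding protein, was at 35.5, 36.3 and 37.3 scaled TPM ex vivo and at 324.4, 293.9 and 270.1 after stimulation. Its mean rose 8.14-fold, the largest log2 change among the rises of named genes (2.99 ± 0.22, SE, adjusted p = 3.8e-06, limma). Both groups were tight and lay far apart. Iigp1 (mm9 chr18:60535683-60552281), a GTPase that disrupts parasite vacuoles, went from 22.0, 25.0 and 30.3 to 180.0, 192.1 and 150.5 (log2 change 2.72 ± 0.20, adjusted p = 4.6e-06). Igtp (chr11:58013058-58021093), also called Irgm3 and a regulator of the other IRG proteins, went from 55.8, 65.9 and 57.4 to 264.9, 283.8 and 234.6 (2.11 ± 0.16, adjusted p = 5.23e-06). Its neighbour Irgm2 (chr11:58028530-58036282) went from 11.3, 10.8 and 14.1 to 72.9, 82.1 and 68.7 (2.54 ± 0.13, adjusted p = 5.78e-07). For each of these genes the ranges of the groups lay far apart. Gbp5 (chr3:142159864-142185308), a promoter of inflammasome assembly, rose by 2.00 ± 0.15 on the log2 scale, from 19.4, 22.2 and 22.6 to 95.1, 93.1 and 78.5 scaled TPM.

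The other members filled the range below. Tgtp1 rose by 2.17 and its near-identical copy Tgtp2 by 1.58 on the log2 scale, and reads of this pair can be split between them, while Tgtp1 also overlaps the model Gm12185. Irgm1 rose by 1.68, Ifi47 by 1.32, Gbp7 by 1.06, Gbp6 by 0.84, Gbp4 by 0.82 and Gbp3 by 0.36. Gbp10 had a log2 change of 0.34 (adjusted p = 0.142) and Gbp8 one of -0.20 (adjusted p = 0.216), and their direction turned under other scalings. Gbp9 fell by 0.60 (adjusted p = 0.00112; 0.166 with cyclic loess). The call for Gbp3 was lost without the first ex vivo library (adjusted p = 0.0712) or the first stimulated one (adjusted p = 0.0653). The calls of Gbp3, Gbp4 and Gbp6 were lost on TPM as deposited, and their log2 changes there were 0.04, 0.49 and 0.53. Gbp6 and Gbp10 are also close relatives with uncertain read assignment. Tgtp2, Irgm1, Ifi47, Gbp3, Gbp4, Gbp6, Gbp7, Gbp8 and Gbp10 were added after their values were seen, to give the other listed members.

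**Figure D2:**
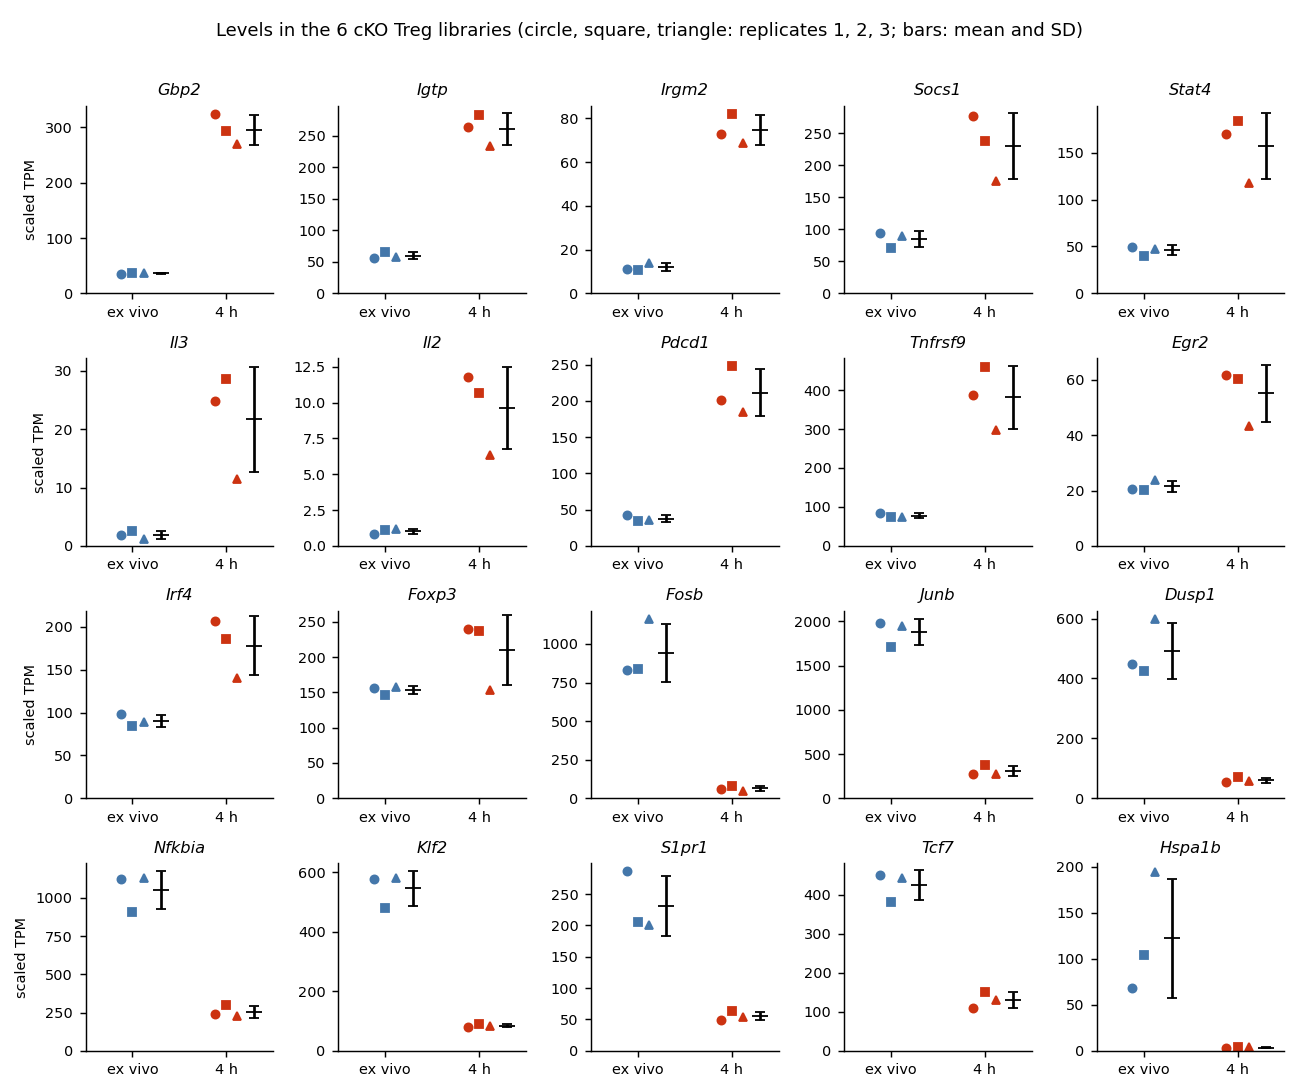
Scaled TPM (y axis of each panel, starting at 0) of 20 genes in the 3 ex vivo and 3 stimulated cKO libraries, points for libraries and bars for the mean and SD. Gbp2, Igtp, Irgm2, Pdcd1 and Tnfrsf9 lie higher in every stimulated library, Fosb, Junb, Dusp1, Klf2 and Hspa1b lower in every one, and the groups of Foxp3 overlap.

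Genes of cytokine signalling moved in both directions. In the list of SOCS feedback inhibitors, STAT factors and PIM kinases 10 of 22 tested genes rose and 5 fell (15 and 4 with cyclic loess), with a median log2 change of 0.28 that was -0.03 on TPM as deposited. Socs1 (chr16:10783901-10785629, mm9), an inhibitor of JAK kinases, was at 94.1, 71.5 and 89.4 scaled TPM ex vivo and at 277.9, 238.8 and 175.7 stimulated (log2 change 1.42 ± 0.22, adjusted p = 0.000526). All stimulated libraries were higher, with the lowest in the third. Stat4, which transmits IL-12 signals, went from 49.8, 39.9 and 47.7 to 170.3, 183.6 and 117.2 (1.74 ± 0.16, adjusted p = 1.54e-05). Stat3 rose by 1.05, Stat5a by 0.96, Stat5b by 0.86 and Stat2 by 0.70, while Stat6 had a log2 change of 0.17 (adjusted p = 0.303), which was called higher with cyclic loess (0.66, adjusted p = 4.8e-05), with quantile normalization (0.64, adjusted p = 7.2e-05), with genes of at least 10 TPM (0.41, adjusted p = 0.00379) and with the silent gene level subtracted (0.29, adjusted p = 0.0425). With TPM as deposited Stat2, Stat5a and Stat5b kept their sign (0.38, 0.63 and 0.54) without passing the test. The genes that fell were led by Pim3, a serine/threonine kinase, at 143.2, 117.8 and 120.0 ex vivo and 21.5, 23.0 and 23.8 stimulated (-2.42 ± 0.10, adjusted p = 1.84e-07). Socs3 fell by 1.55 and Pim1 by 1.40. Stat2, Stat5a, Stat5b and Stat6 were added after their values were seen.

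Of 37 tested type I interferon stimulated genes 7 rose and 13 fell (11 and 13 with cyclic loess), against 17.3% and 26.5% of all genes. The counts were 8 and 8 without the third stimulated library, and 10 and 7 with genes of at least 10 TPM, where the median of -0.32 became 0.04. On TPM as deposited they were 1 and 15, with a median of -0.60. Samhd1, a phosphohydrolase of deoxynucleotides, rose from 81.8, 76.8 and 80.5 to 196.7, 207.4 and 172.1 scaled TPM (log2 change 1.25 ± 0.12, adjusted p = 2.41e-05), and Mir5111 overlaps it on the same strand. Usp18, which removes ISG15 from proteins, rose from 9.31, 14.8 and 11.9 to 28.6, 27.8 and 18.5 (0.99 ± 0.18, adjusted p = 0.00166; 0.68 and adjusted p = 0.0626 on TPM as deposited). Isg15, the ubiquitin-like protein itself, fell from 14.4, 21.1 and 20.4 to 6.61, 7.86 and 9.10 (-1.14 ± 0.22, adjusted p = 0.00214). Oas3, a sensor of double-stranded RNA, fell by 0.88 on the log2 scale. Ifi27l2a fell by 0.88 too, but its call was lost with cyclic loess (-0.23, adjusted p = 0.478) and without the first or second ex vivo or the first or the third stimulated library (adjusted p = 0.0507 to 0.0924).

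Cytokine and chemokine genes changed in both directions. Of 43 listed genes 30 were tested, of which 9 rose and 13 fell (9 and 11 with cyclic loess), against 17.3% and 26.5% of all genes (17.8% and 19.6% with cyclic loess). Il3 (chr11:54078805-54080779, mm9), a growth factor of haematopoietic cells, was at 1.86, 2.62 and 1.24 scaled TPM ex vivo, from 10 to 16 reads, and at 24.9, 28.6 and 11.5 stimulated, from 38 to 133 reads (log2 change 2.90 ± 0.39, adjusted p = 0.00023). Il2 (chr3:37019445-37024881), the T cell growth factor that Foxp3 represses, was at 0.832, 1.08 and 1.16, from 12 to 17 reads, and at 11.8, 10.7 and 6.35, from 38 to 97 reads (2.35 ± 0.46, adjusted p = 0.00218). The stimulated libraries were clear of the ex vivo libraries for both genes. The ex vivo values of Il2, and the lowest of Il3, lay within the range of the cKO library medians of the silent genes (0.538 to 1.44). Each Il2 value was above the median of its own library (0.538, 0.964 and 0.666), but the sizes of both rises are uncertain. Of the 4 groups only stimulated cKO Treg brought Il3 past the minimum of 5 TPM. With cyclic loess Il3 kept its call (2.32, adjusted p = 0.00121) and Il2 lost it (1.25, adjusted p = 0.0571).

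Of the other 7 cytokine genes that rose, Lif, a cytokine of the IL-6 family, had the highest level, at 9.26, 9.87 and 9.72 ex vivo and 34.3, 30.1 and 25.8 stimulated (1.54 ± 0.16, adjusted p = 4.62e-05). The chemokine gene Ccl3 rose by 1.78, the type 2 cytokine gene Il13 by 1.44, Csf2, which encodes GM-CSF, by 1.43, Ccl1 by 1.33, Tnfsf9, the ligand of 4-1BB, by 0.60 and Xcl1 by 0.58 on the log2 scale. Ccl3, Csf2 and Xcl1 lost their calls with cyclic loess (0.95, 0.56 and 0.50, adjusted p = 0.103, 0.282 and 0.0801). Without the first ex vivo library Ccl3 lost its call (1.42, adjusted p = 0.0634), and Tnfsf9 did so without the first or the third ex vivo or the second stimulated library (adjusted p = 0.0771, 0.0732 and 0.078). The groups of Xcl1 overlapped, and its call was lost without the second or the third library of either group (adjusted p = 0.0775 to 0.136). Ifng was lower in every stimulated library, at 53.2, 68.7 and 91.7 ex vivo and 39.6, 24.1 and 21.8 after stimulation (-1.30 ± 0.26, adjusted p = 0.00277). Il10, an anti-inflammatory cytokine of Treg, fell from 62.7, 66.9 and 73.6 to 32.4, 35.8 and 21.1 (-1.19 ± 0.21, adjusted p = 0.00119), and Tnfsf11, which encodes RANKL, fell by 1.28. Lif, Il13, Csf2, Ccl1, Tnfsf9 and Xcl1 were added after their values were seen, to complete the cytokine genes that rose.

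Among the cytokine receptor subunits 4 of 24 tested genes rose and 13 fell (4 and 6 with cyclic loess), against 17.3% and 26.5% of all genes. The 4 that rose were Il1rl1, the IL-33 receptor, by 1.70, Il12rb2, a chain of the IL-12 receptor, by 1.48, Ifngr1, the ligand-binding chain of the interferon gamma receptor, by 1.02, and Il2ra, the high-affinity chain of the IL-2 receptor, by 0.65 on the log2 scale. Ifngr1 was at 120.0, 96.7 and 97.5 scaled TPM ex vivo and at 207.4, 252.3 and 183.9 stimulated, and Il2ra at 132.5, 120.7 and 146.9 and at 244.0, 228.3 and 164.5. Neither gene passed the test on TPM as deposited (0.69, adjusted p = 0.0585, and 0.32, adjusted p = 0.366), and Il12rb2, at 1.39 to 1.93 scaled TPM ex vivo, did not with cyclic loess (0.56, adjusted p = 0.135). Il27ra fell by 1.54, Il6ra by 1.44 and Ifnar1, a chain of the type I interferon receptor, by 1.08.

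Surface receptors of activated T cells were split. Of 26 tested costimulatory receptors and activation markers 6 rose and 13 fell (12 and 9 with cyclic loess, 2 and 14 on TPM as deposited). Of 15 coinhibitory receptors and their ligands 6 rose and 5 fell (6 and 5 with cyclic loess, 3 and 5 on TPM as deposited). In the coinhibitory list 3 rose without the first ex vivo or the second stimulated library. Pdcd1 (chr1:95934884-95949130, mm9), which encodes the inhibitory receptor PD-1, went from 43.0, 34.2 and 35.3 scaled TPM to 200.7, 247.7 and 184.9, a 5.63-fold rise of the mean (log2 change 2.46 ± 0.12, adjusted p = 5.78e-07). Tnfrsf9, which encodes 4-1BB, went from 85.1, 73.8 and 74.0 to 386.9, 458.6 and 297.6 (2.26 ± 0.16, adjusted p = 3.64e-06). Both genes were several times higher in every stimulated library. Cd200 rose by 1.68, Tigit by 1.18, Cd24a by 0.94 and Tnfrsf18, which encodes GITR, by 0.58 on the log2 scale, the last without a call on TPM as deposited (0.25, adjusted p = 0.448).

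Other receptors of the same lists fell. Cd28 went from 290.3, 248.1 and 302.2 scaled TPM to 65.6, 76.8 and 60.2 (-2.04 ± 0.11, adjusted p = 9.79e-07). Cd69, an early activation marker, was at 284.8, 307.1 and 398.9 in the cells taken directly after sorting and at 97.1, 109.6 and 91.5 after stimulation (-1.71 ± 0.20, adjusted p = 9.42e-05). Ctla4, the inhibitory receptor that competes for the ligands of CD28, fell from 703.4, 621.5 and 666.9 to 252.7, 296.3 and 217.5 (-1.38 ± 0.12, adjusted p = 1.2e-05; -0.53 with cyclic loess), and the pseudogene Rpl18-ps1 overlaps it. Cd44 fell by 1.67, Lag3 by 1.38 and Cd96 by 1.37. The falls of these 6 genes were called with cyclic loess too.

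Of 30 tested core Treg genes 10 rose and 12 fell (14 and 9 with cyclic loess, 2 and 14 on TPM as deposited, where the median of -0.24 became -0.55), against 17.3% and 26.5% of all genes. Foxp3 was at 156.3, 146.6 and 157.6 scaled TPM ex vivo and at 240.0, 237.3 and 152.8 stimulated. The third stimulated library lay among the ex vivo ones, and the log2 change of 0.42 ± 0.18 did not pass the test (adjusted p = 0.0734). Without that library it was 0.68 with an adjusted p of 0.00491, and with cyclic loess 1.15 with an adjusted p of 0.000196. Foxp3 was also called higher with quantile normalization (1.21, adjusted p = 0.000265), genes of at least 10 TPM (0.67, 0.00379) and the silent gene level subtracted (0.55, 0.0137). So it was with the median of ratios (0.48, 0.0419) and limma-voom (0.41, 0.0338), but with genes of at least 1 TPM its change was -0.13 (0.819). The model 4930524L23Rik overlaps the gene. Itgb8, an integrin chain that activates TGF-beta, rose from 7.50, 7.74 and 9.56 to 33.6, 39.7 and 26.5 (1.88 ± 0.13, adjusted p = 3.61e-06). Tbx21, the Th1 factor T-bet, rose by 1.07, and Lrrc32, which encodes the TGF-beta carrier GARP, by 0.87 (0.54 and adjusted p = 0.146 on TPM as deposited). Folr4, a folate receptor family member of T cells, fell by 1.60 and Nrp1, a semaphorin co-receptor, by 1.28.

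Within the Ikaros family, Ikzf4, which encodes Eos, rose by 0.55 (adjusted p = 0.00311; 0.22, adjusted p = 0.465, on TPM as deposited). Ikzf1 fell by 0.44 (adjusted p = 0.011) and Ikzf2, which encodes Helios, by 0.50 (adjusted p = 0.0131), but with cyclic loess these changes were 0.05 and 0.22 and neither was called, and with quantile normalization Ikzf2 was called higher (0.25, adjusted p = 0.0451). Ikzf1 (-0.27, adjusted p = 0.0643) and Ikzf2 (-0.34, adjusted p = 0.0687) were not called without the third stimulated library either, nor was Ikzf2 without the first or the third ex vivo library (adjusted p = 0.0518 and 0.052). Ikzf5 fell by 0.43 (adjusted p = 0.00341). Ikzf3, which encodes Aiolos, had a log2 change of -0.29 (adjusted p = 0.1), and with cyclic loess of 0.04; without the second stimulated library it was -0.41 (adjusted p = 0.0366).

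**Figure D3:**
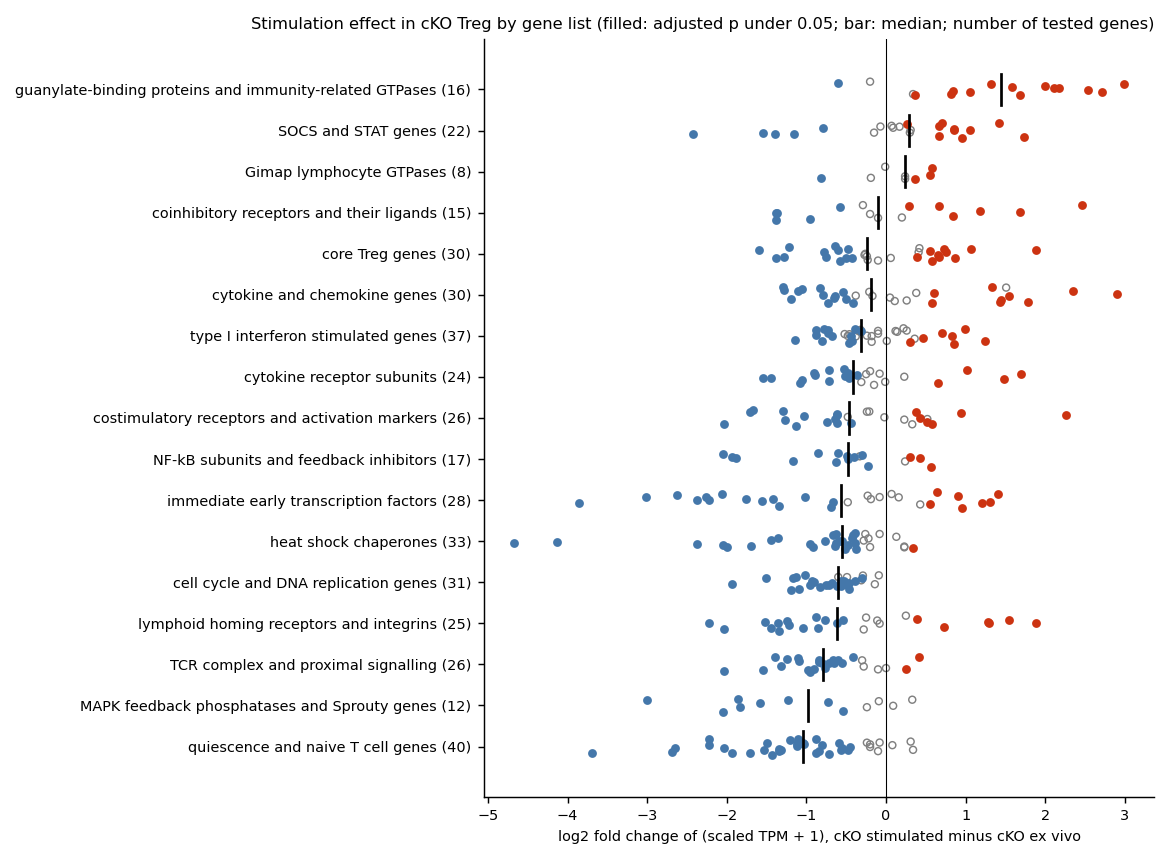
Log2 change of stimulated against ex vivo cKO Treg (x axis) of the tested genes of 17 lists (rows), filled points for an adjusted p under 0.05 and a line for the median. The GBP and IRG genes have the highest median, 1.45, and the quiescence genes the lowest, -1.05.

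Immediate early transcripts, which T cells make within minutes of a stimulus, changed in both directions. Of 28 tested genes 7 rose, 14 fell and 7 were not called (8 higher and 13 lower with cyclic loess), with a median log2 change of -0.57 (-1.07 to -0.08 over the other scalings). Fosb (chr7:19888070-19895394, mm9), an AP-1 subunit, went from 828.2, 834.5 and 1158.5 scaled TPM to 61.2, 80.7 and 50.3, a 14.7-fold fall of the mean (-3.86 ± 0.18, adjusted p = 4.16e-07). Its partner Junb went from 1985.0, 1714.9 and 1950.5 to 276.5, 372.2 and 274.1 (-2.62 ± 0.16, adjusted p = 1.86e-06). Fos fell by 3.01 and Jun by 2.23 on the log2 scale. All 4 AP-1 genes lay lower in every stimulated library than in any ex vivo library.

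The genes of the list that rose were other factors. Egr2, an EGR factor of T cell tolerance, went from 20.6, 20.3 and 23.7 scaled TPM to 61.8, 60.5 and 43.3 (1.31 ± 0.15, adjusted p = 9.22e-05), and its relative Egr3 rose by 1.41. Irf4, needed for effector Treg, went from 97.7, 83.9 and 89.5 to 207.2, 185.8 and 139.9 (0.95 ± 0.13, adjusted p = 0.000301; 0.62 and adjusted p = 0.0646 on TPM as deposited), and Irf8 rose by 1.21. Myc rose by 0.64 (adjusted p = 0.00703; 0.31 and adjusted p = 0.334 on TPM as deposited). Nr4a1, a nuclear receptor read as a marker of TCR signals, was at 654.0, 540.8 and 578.7 ex vivo and at 672.6, 801.2 and 529.3 stimulated (0.16 ± 0.17, adjusted p = 0.464; -0.17 on TPM as deposited). It was called higher with cyclic loess (1.09, adjusted p = 5.58e-06), quantile normalization (0.95, adjusted p = 9.89e-05) and genes of at least 10 TPM (0.41, adjusted p = 0.0243). Of the 6 control genes of T cell stimulation, Egr2, Il2ra, Irf4 and Myc were called higher, Cd69 lower and Nr4a1 neither in the fit reported.

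Of 12 tested MAP kinase phosphatases and Sprouty genes none rose and 8 fell (1 and 7 with cyclic loess), with a median log2 change of -0.98 (-1.52 to -0.37 over the other scalings). Over all genes 17.3% rose and 26.5% fell, but of the genes above 50 TPM 1106 of 1666 fell (558 with cyclic loess). The median highest group mean was 87.9 TPM for this list and 131.4 TPM for the NF-kB list that follows. Dusp1 went from 449.9, 424.9 and 598.2 scaled TPM to 54.1, 69.8 and 56.5 (-3.00 ± 0.19, adjusted p = 1.86e-06), Dusp14 fell by 2.05, Dusp10 by 1.86 and Dusp2 by 1.58. Of 17 NF-kB subunits and feedback inhibitors 3 rose and 12 fell, but 5 rose and 4 fell with cyclic loess, and the median of -0.48 became 0.07. There were 7 lower calls without the first ex vivo or the third stimulated library, and 1 higher call without the third ex vivo or the first or second stimulated library. Nfkbia, which encodes the inhibitor that holds NF-kB in the cytoplasm, went from 1122.1, 907.8 and 1126.8 to 238.8, 300.7 and 225.3 (-2.05 ± 0.14, adjusted p = 3.34e-06). The inhibitor genes Tnfaip3, Nfkbie and Tnip1 fell by 1.94, 1.88 and 1.17 and were called with cyclic loess too. Relb fell by 0.40 and was not (0.01, adjusted p = 0.973), nor was it called without the first ex vivo, the first stimulated or the third stimulated library (adjusted p = 0.0996, 0.0867 and 0.104). The 3 genes that rose were Nfkbid by 0.57, the subunit gene Nfkb1 by 0.43 and Bcl3 by 0.30, none of them called on TPM as deposited (0.24, 0.10 and -0.02). Nfkb1 lost its call without the second or the third ex vivo or the first or second stimulated library (adjusted p = 0.0578 to 0.0836). Bcl3, whose groups overlapped, did so without the first or the third ex vivo or the first or second stimulated library (adjusted p = 0.0798 to 0.109).

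Of 26 tested genes of the TCR complex and proximal signalling 2 rose and 20 fell (7 and 12 with cyclic loess; 0 rose without the second ex vivo or the first stimulated library, and 1 without the first or the third ex vivo or the second stimulated one), with a median log2 change of -0.79 (-1.33 to -0.18 over the other scalings). Over all genes 17.3% rose and 26.5% fell (17.8% and 19.6% with cyclic loess), but the median highest group mean of the list was 121.8 TPM, and of the genes above 50 TPM 1106 of 1666 fell. Lat, the membrane adaptor that recruits phospholipase C, went from 355.1, 329.2 and 367.0 scaled TPM to 124.9, 130.3 and 106.5 (-1.54 ± 0.11, adjusted p = 3.62e-06), and Malt1, the protease that links the TCR to NF-kB, fell by 1.39. The phosphatase gene Ptpn22 and the adaptor gene Nck1 were called higher, by 0.41 and 0.25, and neither kept the call on TPM as deposited (0.08 and -0.05). Leaving out either of the first ex vivo or first stimulated library ended the call for Nck1 (adjusted p = 0.130 and 0.121), as did the second ex vivo library (adjusted p = 0.0806), and for Ptpn22, whose groups overlapped, the second or the third ex vivo or the first or second stimulated library did so (adjusted p = 0.0702 to 0.115). None of the 16 tested calcium and NFAT genes rose and 9 fell (3 and 6 with cyclic loess; 1 rose without the second ex vivo or the third stimulated library), among them Itpr2, a calcium channel of the endoplasmic reticulum, by 1.34 and Nfatc2 by 0.94. In the list of anergy E3 ligases and diacylglycerol kinases 4 of 18 rose and 9 fell (6 and 7 with cyclic loess), and 2 rose without the second ex vivo or the first or second stimulated library. Cblb, a ubiquitin ligase that limits TCR signals, went from 93.7, 71.2 and 75.9 to 205.9, 234.6 and 161.9 (1.31 ± 0.20, adjusted p = 0.000498), while Dgkz, a diacylglycerol kinase, fell by 1.39 and Dtx1, a Notch-related ligase, from 82.7, 81.0 and 90.8 to 7.65, 7.68 and 8.19 (-3.28 ± 0.12, adjusted p = 1.01e-07).

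Most of the genes of the resting state fell. Of 40 tested quiescence and naive T cell genes none rose and 32 fell (7 and 26 with cyclic loess), with a median log2 change of -1.05 (-1.57 to -0.52 over the other scalings). Over all genes 26.5% fell (19.6% with cyclic loess), and of those above 50 TPM 1106 of 1666 fell (558 with cyclic loess); the median highest group mean of the list was 108.7 TPM. Klf4, a Kruppel-like factor that restrains proliferation, went from 200.9, 162.3 and 188.4 scaled TPM to 12.3, 14.3 and 13.0 (-3.70 ± 0.13, adjusted p = 1.01e-07). Klf2 (chr8:74842932-74845555, mm9), which keeps T cells quiescent and recirculating, went from 579.6, 479.8 and 580.2 to 79.4, 88.8 and 83.4, a 6.52-fold fall (-2.69 ± 0.15, adjusted p = 1.13e-06). Both groups were narrow for these genes and did not come near each other. Klf6 fell by 2.65. Tcf7 (chr11:52065873-52096681), which encodes the factor TCF1 of naive and memory cells, went from 451.0, 381.5 and 441.0 to 109.9, 149.9 and 130.1 (-1.71 ± 0.13, adjusted p = 4.6e-06), and the model Gm16953 overlaps it.

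Homing receptors followed in part, with 6 of 25 tested genes higher and 14 lower (8 and 10 with cyclic loess). S1pr1, the receptor for egress from lymphoid organs and a target of KLF2, went from 287.1, 205.9 and 200.5 scaled TPM to 49.5, 62.7 and 53.6 (-2.03 ± 0.18, adjusted p = 1.12e-05). Cxcr5, the receptor for entry into B cell follicles, fell by 2.23 and the integrin gene Itgal by 1.52. The chemokine receptor gene Cxcr6 rose from a low level, from 3.60, 2.83 and 2.72 to 9.98, 9.85 and 12.7 (1.55 ± 0.19, adjusted p = 0.00011).

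Of 33 tested heat shock chaperone genes 1 rose and 24 fell (5 and 13 with cyclic loess; 0 rose without the first or the third ex vivo or the second stimulated library), with a median log2 change of -0.55 (-1.09 to -0.11 over the other scalings), against 17.3% and 26.5% of all genes (17.8% and 19.6% with cyclic loess). Hspa1b, the inducible HSP70 gene, was at 68.5, 103.6 and 194.2 scaled TPM ex vivo and at 2.48, 4.34 and 3.61 stimulated, a 35.1-fold fall of the mean (-4.67 ± 0.48, adjusted p = 3.46e-05). The ex vivo libraries varied among themselves and all lay far above the stimulated ones. Its near-identical copy Hspa1a, which can share reads with it, fell by 4.14, and Dnajb1, an HSP40 co-chaperone gene, by 2.37. In the unfolded protein and ATF4 response 4 of 32 rose and 19 fell (5 and 13 with cyclic loess; 4 and 12 without the third stimulated library). Ppp1r15a, a phosphatase subunit that restores translation, fell by 2.94, Dnajb9, a chaperone gene of the endoplasmic reticulum, by 2.71 and Herpud1 by 1.72, while the sensor gene Ern1 rose by 0.72 (0.42 and adjusted p = 0.112 on TPM as deposited). The mRNA decay factor genes Zfp36 and Zc3h12a, which restrain inflammatory transcripts, fell by 2.91 and 2.06. Bhlhe40, a transcription factor induced by activation, fell from 1141.6, 898.6 and 937.7 to 154.7, 202.3 and 131.6 (-2.61 ± 0.17, adjusted p = 2.37e-06).

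Most of the proliferation genes fell. Of 31 tested cell cycle and DNA replication genes none rose, 24 fell and 7 were not called (0 higher and 27 lower with cyclic loess), with a median log2 change of -0.60 (-1.06 to -0.55 over the other scalings). The fall was called for 16 of them whichever cKO library was left out. Pcna, the sliding clamp of DNA polymerase, went from 81.3, 54.1 and 80.1 scaled TPM to 15.5, 21.7 and 16.3 (-1.94 ± 0.19, adjusted p = 2.92e-05), Mki67 from 50.9, 45.2 and 50.1 to 24.7, 13.6 and 13.1 (-1.51 ± 0.25, adjusted p = 0.000832), and the helicase gene Mcm3 fell by 1.19. Ezh2, the histone methyltransferase of Polycomb complex 2, went from 13.7, 13.5 and 15.1 to 38.8, 31.5 and 22.9 (1.06 ± 0.15, adjusted p = 0.000352). Of 78 cytosolic ribosomal protein genes 2 rose and 47 fell, but 12 rose and 20 fell with cyclic loess, and 0 or 1 rose when any 1 cKO library was left out. Rpl10, which has processed pseudogenes that can take reads, fell by 1.84.

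Of 22 glycolysis genes 3 rose and 12 fell (5 and 8 with cyclic loess), and 1 rose without the first or the third ex vivo library. Slc16a3, a lactate exporter gene, rose by 1.19, and Gapdh, which has many pseudogene copies, and the glucose transporter gene Slc2a1 fell by 1.08 and 1.03. Of 14 amino acid transporter genes none rose and 9 fell (1 and 7 with cyclic loess; 1 rose without the third stimulated library), with Slc3a2 and Slc38a2 lower by 1.56 and 1.53. Of the proteasome subunit genes 1 of 31 was higher and 9 lower, a share near the 26.5% of all genes that fell, and 14 were higher and 2 lower with cyclic loess (17.8% and 19.6% of all genes). The lower calls numbered 4 without the first and 5 without the third ex vivo library, and without the third stimulated one 4 were higher and 3 lower. In the BCL2 family 4 of 16 rose and 4 fell (6 and 1 with cyclic loess), against 17.3% and 26.5% of all genes (17.8% and 19.6%), and 1 or 2 rose without any 1 of the ex vivo libraries or the second stimulated one. Pmaip1, which encodes the death promoter NOXA, fell by 1.64, and Mcl1, which opposes it, by 0.63 without a call with cyclic loess (0.02, adjusted p = 0.870). Of the 8 Gimap GTPase genes, which support lymphocyte survival, 3 rose and 1 fell (6 and 0 with cyclic loess; on TPM as deposited their median of 0.24 became -0.08), and 1 rose without the second ex vivo or the first or second stimulated library (2 fell without the first stimulated one). Gimap3 rose by 0.58 and Gimap4 by 0.55, and Gimap6 fell by 0.82 (-0.05, adjusted p = 0.808, with cyclic loess). Gimap3 (0.25) and Gimap4 (0.22) were not called on TPM as deposited, nor was Gimap3 without the second ex vivo library (adjusted p = 0.0669) or the first or second stimulated one (adjusted p = 0.0540 and 0.0653).

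The largest rises also held 2 genes of no list. Fn1, which encodes the matrix protein fibronectin, was at 2.12, 3.53 and 1.22 scaled TPM ex vivo and at 5.48, 13.2 and 20.6 stimulated (1.99 ± 0.40, adjusted p = 0.00264). The low sums of the myeloid, dendritic and CD8 or NK markers were higher in the same libraries, and a link to Fn1 was not tested. Myo1d, a class I myosin gene, went from 2.24, 3.69 and 2.69 to 14.0, 14.1 and 12.4 (1.92 ± 0.15, adjusted p = 5.63e-06) and is overlapped by C030013C21Rik. The spread of Fn1 among the stimulated libraries was wide and that of Myo1d narrow.

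The WT response was set beside that of cKO Treg to see where the latter differs; the comparisons share no library. In WT Treg 4262 genes were called, or 32.0%. Of the 5835 cKO calls 53.9% were called in WT in the same direction, and of the 4262 WT calls 73.8% were called in cKO, while 33 genes were called in opposite directions. Across the 13318 genes the log2 changes had a Pearson r of 0.683 and a Spearman rho of 0.710, a description over genes that are not independent. The difference between the responses was tested directly as the interaction of genotype and stimulation. It was called for 147 genes, or 1.10%, of which 60 (0.451%) had the higher change in cKO and 87 (0.653%) the lower. An unadjusted p under 0.05 was found for 1926 genes, the 147 included. The number of calls was sensitive to the fit: 67 on TPM as deposited, 330 with cyclic loess and 395 with limma-voom on recovered reads, 56 to 208 when 1 of the 12 libraries was left out, and 0 (limma) with all genes of at least 1 TPM, where 2405 had an unadjusted p under 0.05. None of the 30 interactions named below passed the test under every alternative run, and on TPM as deposited 19 of them did not pass, 18 of the 19 higher ones (all but Ly6c1) and 1 of the 11 lower ones (Nfkbia).

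**Figure D4:**
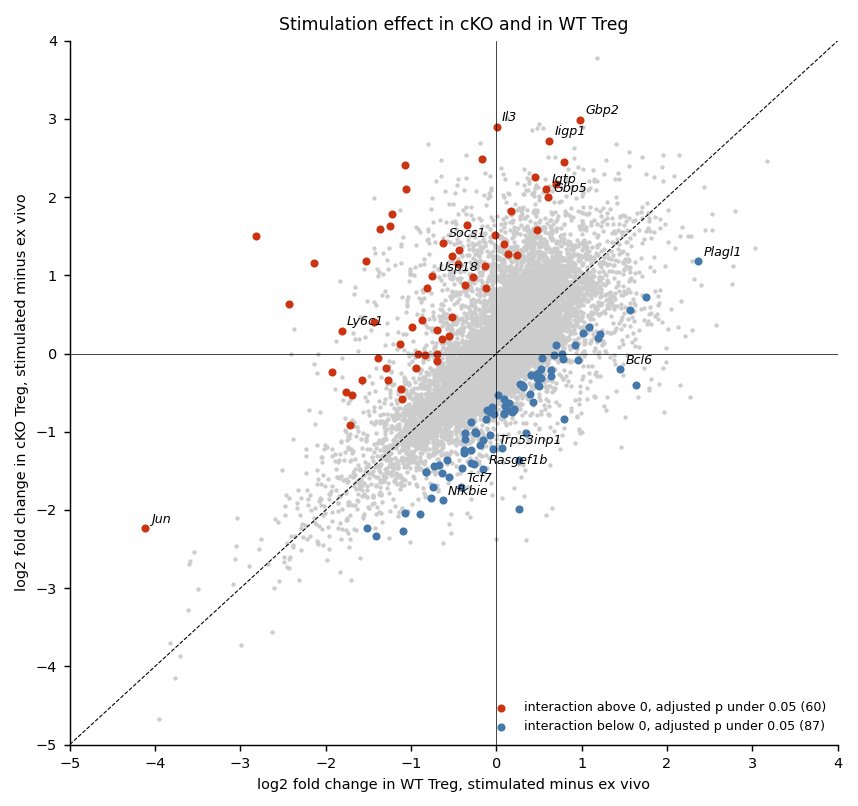
Log2 change in cKO Treg (y axis) against that in WT Treg (x axis) of 13318 genes, with the 147 genes of the interaction coloured, 60 higher and 87 lower in cKO. Gbp2, Iigp1, Socs1 and Il3 lie above the diagonal, and Tcf7 and Bcl6 below it.

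Of the 16 listed GBP and IRG genes 8 had a higher change in cKO and none a lower one, with median log2 changes of 1.45 in cKO and 0.31 in WT. Gbp2 was at 33.0, 33.4 and 43.8 scaled TPM in ex vivo WT Treg and at 84.5, 47.8 and 96.2 after stimulation. The ex vivo levels of the genotypes were alike in range, and the stimulated cKO libraries lay above all WT libraries (interaction 2.00 ± 0.30, SE, adjusted p = 0.0137). Iigp1 gave an interaction of 2.10 (adjusted p = 0.0122), Gbp6 of 1.65 (0.0122), Igtp of 1.53 (0.0132), Tgtp1 of 1.47 (0.0132), Gbp5 of 1.40 (0.0148), Gbp10 of 1.32 (0.0367) and Tgtp2 of 1.10 (0.0454), all in log2 units with adjusted p from limma in brackets. Irgm2 rose in both genotypes, by 2.54 and 1.96, and its interaction of 0.58 did not pass (adjusted p = 0.156). Of the 12 fits that each left out 1 library, 2 called Tgtp2 and 3 called Gbp10 (adjusted p up to 0.114 and 0.106, both without the first ex vivo cKO library, and 0.106 for Gbp10 also without the third ex vivo or the first stimulated one); the other 6 were called whichever library was left out. On TPM as deposited none of the 8 was called (Iigp1 1.58, Gbp2 1.48, Gbp6 1.15, Igtp 1.01, Tgtp1 1.01, Gbp5 0.89, Gbp10 0.88 and Tgtp2 0.61, adjusted p = 0.0813 to 0.192), and none was with genes of at least 1 TPM.

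Socs1 was at 68.5, 66.8 and 98.5 scaled TPM in ex vivo WT Treg and at 61.3, 38.5 and 51.1 after stimulation, a log2 change of -0.62 that did not pass the test (adjusted p = 0.0501), against 1.42 in cKO (interaction 2.04, adjusted p = 0.0137). Of the 37 type I interferon stimulated genes 7 had a higher change in cKO and none a lower one. They were Usp18 (1.75), Zbp1 (1.25), Rtp4 (1.12), Samhd1 (1.01), Dtx3l (0.99), Parp14 (0.96) and Parp9 (0.77). Zbp1, Rtp4 and Parp9 did not pass the test within cKO (log2 changes 0.12, -0.18 and 0.22) and fell by 1.13, 1.30 and 0.55 in WT. Parp9 was called higher in cKO with cyclic loess (0.44, adjusted p = 0.00525), quantile normalization (0.47, 0.00239), genes of at least 10 TPM (0.46, 0.00205), the median of ratios (0.28, 0.0342), the silent gene level subtracted (0.33, 0.0158) and without the third stimulated library (0.32, 0.0434). Usp18 and Dtx3l fell in WT too, by 0.75 and 0.52. On TPM as deposited none of these 7 interactions was called (Usp18 1.25, Zbp1 0.74, Rtp4 0.62, Samhd1 0.48, Dtx3l 0.47, Parp14 0.44 and Parp9 0.27, adjusted p = 0.0997 to 0.498), nor was that of Socs1 (1.51, adjusted p = 0.0984). Usp18 was called whichever of the 12 libraries was left out, whereas Samhd1 was called in 8 of these 12 fits, Rtp4, Parp9 and Dtx3l in 7 each, Parp14 in 6 and Zbp1 in 1 (adjusted p up to 0.0657 for Samhd1 and 0.0617 for Rtp4 without the first stimulated cKO library, 0.0715 for Parp9 without the first ex vivo one, and 0.135, 0.0685 and 0.0831 for Zbp1, Dtx3l and Parp14 without the third ex vivo one). Rtp4, Zbp1, Parp9, Dtx3l and Parp14 were named after their values were seen. Il3 had no change in WT (0.00) and an interaction of 2.90 (adjusted p = 0.0383), which was called in 3 of the 12 fits that each left out 1 library (adjusted p up to 0.113, without the first stimulated cKO library). Its mean was 21.7 scaled TPM in stimulated cKO Treg and 1.91 to 2.24 in the other groups. The stimulated cKO group alone thus brought it past the minimum of 5 TPM, so its test is not independent of that minimum. For Il2 the interaction of 2.04 did not pass (adjusted p = 0.168).

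Ly6c1, a surface antigen with the close copy Ly6c2, was at 31.4, 33.2 and 32.1 scaled TPM ex vivo and at 48.9, 31.0 and 41.2 stimulated in cKO Treg (0.29, adjusted p = 0.108; 0.47 and adjusted p = 0.00684 without the second stimulated library). It was called higher in cKO with cyclic loess (0.68, adjusted p = 0.0141), quantile normalization (0.71, 0.0121), genes of at least 10 TPM (0.54, 0.0156) and the silent gene level subtracted (0.42, 0.0496). In WT Treg it went from 65.7, 75.4 and 71.8 to 21.5, 18.8 and 18.2, which gave the smallest p among the interactions named here (2.11, adjusted p = 0.00531). Jun fell less in cKO than in WT Treg, where it went from 440.6, 480.6 and 756.6 to 31.1, 31.1 and 29.1 (interaction 1.89, adjusted p = 0.0172). Its mean was 229.7 scaled TPM in cKO and 559.3 in WT ex vivo, and 46.9 and 30.4 stimulated. These differences between genotypes were not tested. The interaction of Jun was lost in 3 of the 12 fits that each left out 1 library (adjusted p up to 0.0548, without the first stimulated cKO library).

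On the lower side, Tcf7 fell by 1.71 in cKO Treg and by 0.41 in WT Treg, where it was at 435.4, 390.8 and 448.0 ex vivo and at 292.8, 346.5 and 318.6 stimulated (interaction -1.30, adjusted p = 0.0122). Ex vivo levels of Tcf7 overlapped between the genotypes and stimulated levels did not. Bcl6, the factor of follicular T cells, was at 24.7, 18.4 and 21.0 ex vivo and 14.7, 24.4 and 17.3 stimulated in cKO (-0.20, adjusted p = 0.401), whereas in WT it went from 18.8, 15.9 and 17.7 to 42.3, 60.5 and 46.8 (interaction -1.65, adjusted p = 0.0163). Rasgef1b, an exchange factor of small GTPases (-1.32, adjusted p = 0.00645), and Trp53inp1, a p53-induced gene (-1.18, adjusted p = 0.0132), fell in cKO by 1.48 and 1.22 and had changes of -0.15 and -0.04 in WT. Plagl1, a zinc finger factor, rose in both, by 1.18 in cKO and 2.36 in WT (-1.19, adjusted p = 0.0466), and was called in 2 of the 12 fits that each left out 1 library (adjusted p up to 0.123, without the first ex vivo cKO library). It was not called with cyclic loess (-0.99, adjusted p = 0.0659) or quantile normalization (-0.87, adjusted p = 0.0571). The mean level of Plagl1 was 58.7 scaled TPM in cKO and 23.2 in WT ex vivo, and 134.8 and 121.8 stimulated. These differences between genotypes were not tested.

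The lists of NF-kB and MAP kinase feedback genes held 6 of the 87 genes on the lower side. Of the 17 NF-kB genes 4 had a lower change in cKO and none a higher one, namely Nfkbie (-1.25, adjusted p = 0.0192), Nfkbia (-0.98, 0.0494), Tnip1 (-0.98, 0.0422) and Relb (-0.89, 0.0429), and of the MAP kinase feedback genes Dusp14 (-1.15, 0.0132) and Dusp2 (-1.01, 0.0168). Nfkbie was at 119.2 scaled TPM in cKO and 61.3 in WT ex vivo, and at 31.8 and 39.3 stimulated. Nfkbia was at 1052.2 and 568.1 ex vivo and at 254.9 and 270.0 stimulated, all as means of 3 libraries. Dusp14 was at 61.4, 44.8 and 53.7 in ex vivo cKO and 18.9, 19.7 and 21.3 in ex vivo WT libraries, and its stimulated libraries ranged from 10.5 to 13.5 in cKO and upward from 9.79 in WT, so that they overlapped. These differences between genotypes were not tested here. Relb rose in WT by 0.49 and fell in cKO by 0.40. Tnip1, Relb and Dusp2 were named after their values were seen. Of the 12 fits that each left out 1 library, 2 called Nfkbia, 3 called Tnip1, 3 called Relb, 5 called Nfkbie, 11 called Dusp2 and all 12 called Dusp14. The adjusted p went up to 0.0617, 0.113, 0.113 and 0.0573 for Nfkbie, Tnip1, Relb and Dusp2 without the first stimulated cKO library, and to 0.136 for Nfkbia without the third ex vivo one.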

How the data were processed

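RNA was measured in 12 libraries (4 groups of 3) by rRNA-depleted, strand-specific, paired-end sequencing. Per the study's methods and the submitters' processing notes, the authors aligned reads with STAR 2.6.0c to mm9 and counted them per gene with HTSeq 0.6.1, then deposited TPM (a signal per gene length), which sum to 1000000 per library, and log2 TPM. The log2 values deposited by the authors carry an offset from which whole reads were recovered (99.9977% of values within 0.01 of a whole read), giving the depths. A deposited table of the authors' own comparisons (fold changes, p-values) was not used.

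Genes that reached 5 TPM on average in some group were rescaled by a trimmed mean of M-values (30% of M-values and 5% of A-values trimmed). All 4 groups were fitted in limma 3.58.1 (R 4.3.3) on log2(scaled TPM + 1) with a mean-variance trend, two-sided, at an adjusted p of 0.05. Single values per library were compared by exact permutation (scipy 1.17.1), and tables were made with Python 3.11.15, pandas 2.3.3 and numpy 2.4.6. Fold statements are ratios of mean scaled TPM. Coordinates are from the mm9 annotation. Promoter sequences are RefSeq's on GRCm38.p6, matched by symbol for 7061 of the tested genes. The study's methods call the libraries biological replicates from individual mice; whether an ex vivo and a stimulated library share a mouse is not given in the sources used here, so p-values measure the spread between these libraries.

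The members, lists and tests were chosen with earlier results of these data known. Named genes were the 12 largest rises and falls with non-overlapping groups that reach 10 TPM on average in cKO, up to 3 calls per direction and list, the 6 largest interactions per direction, the Ikaros family, Foxp3 and 6 control genes. Unnamed models, small RNA and pseudogenes were left out (221 rises and 559 falls), the last 2 kinds after values were seen. Alternatives were other scalings (TPM as deposited, median of ratios, cyclic loess, quantile), expression minimums of 1 and 10 TPM, pseudocounts, limma-voom on recovered reads, the median of silent genes subtracted, cKO libraries alone, a replicate block and each library left out.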

Additional observations from a re-analysis of the deposited data

Results flagged for a closer look

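For these genes the change from ex vivo to stimulated Treg differed between cKO and WT by the interaction term (log2, cKO response minus WT response, limma adjusted p under 0.05). The change was higher in cKO for Il3 (2.90), Ly6c1 (2.11), Iigp1 (2.10), Socs1 (2.04), Gbp2 (2.00), Jun (1.89), Usp18 (1.75), Gbp6 (1.65), Igtp (1.53), Tgtp1 (1.47), Gbp5 (1.40), Gbp10 (1.32), Zbp1 (1.25), Rtp4 (1.12), Tgtp2 (1.10), Samhd1 (1.01), Dtx3l (0.99), Parp14 (0.96) and Parp9 (0.77). It was lower for Bcl6 (-1.65), Rasgef1b (-1.32), Tcf7 (-1.30), Nfkbie (-1.25), Plagl1 (-1.19), Trp53inp1 (-1.18), Dusp14 (-1.15), Dusp2 (-1.01), Nfkbia (-0.98), Tnip1 (-0.98) and Relb (-0.89). Each was called in the fit reported, with all 12 libraries. None was called with genes of at least 1 TPM, and none passed under every alternative run. Il3 reached the minimum of 5 TPM only in stimulated cKO Treg. On TPM as deposited 19 of the 30 were not called, namely 18 of the 19 higher ones (all but Ly6c1) and Nfkbia. Gbp2, Iigp1, Igtp, Gbp5, Tgtp1, Gbp6, Socs1, Usp18, Dusp14, Tcf7, Ly6c1, Bcl6, Rasgef1b and Trp53inp1 were called whichever single library was left out.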

How the results depend on the processing

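The cKO calls numbered 4131 to 5832 when 1 cKO library was left out (5835 with all), with the fewest without the first ex vivo library. The higher calls numbered 558 on TPM as deposited, 757 with genes of at least 1 TPM and 1425 to 2303 with 1 library left out, and the lower calls 2137 with genes of at least 10 TPM. Higher calls were 39.5% of the total in the fit reported, 558 of 4674 on TPM as deposited, 757 of 5903 at 1 TPM and 2211 of 4348 at 10 TPM. These scalings moved the median log2 change of the tested genes by -0.30, -0.49 and 0.24, the others by at most 0.07. The WT calls numbered 1943 on TPM as deposited and 1838 at 1 TPM. All 6 other scalings or units called 2374 of the 5835 genes in the same direction. The cause of these differences was not tested.

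The interaction was called for 67 genes on TPM as deposited (6 higher), 337 at 10 TPM (181 higher, 156 lower), 330 with cyclic loess (188, 142), 395 with limma-voom (144, 251), 396 with quantile normalization (179, 217) and 314 with the silent gene level subtracted (130, 184), and for 56 to 208 with 1 library left out (26 to 67 higher, 30 to 147 lower), with the fewest without the first stimulated cKO library. It was called for 0 genes at 1 TPM and 0 with the replicate block (limma, 2405 and 1548 genes with an unadjusted p under 0.05; limma-voom called 395). Same-numbered libraries are not said to be paired, and their deviations correlated at 0.057, -0.208 and -0.062 in cKO and -0.067, 0.001 and 0.041 in WT; with the replicate number as a block 4612 genes were called in cKO. The Gm10800 difference of 25.9 percentage points was 22.4 to 28.9 with 1 library left out.

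Of the 138 called named genes, 86 kept direction and call under every alternative. Direction turned with cyclic loess for Ikzf1 (0.05), Ikzf2 (0.22), Ikzf3 (0.04), Gbp10 (-0.05), Gbp8 (0.03), Rtp4 (0.01), Relb (0.01), Mcl1 (0.02) and Bcl6 (0.10), and with quantile normalization for Ikzf2 (0.25), Ikzf3 (0.06), Gbp8 (0.03), Rtp4 (0.03), Relb (0.03) and Bcl6 (0.03). It turned on TPM as deposited for Stat6 (-0.16), Zbp1 (-0.20), Parp9 (-0.09), Nr4a1 (-0.17), Bcl3 (-0.02), Nck1 (-0.05) and Ly6c1 (-0.03). At 1 TPM it turned for Foxp3 (-0.13), Gbp3 (-0.17), Gbp10 (-0.13), Stat6 (-0.37), Zbp1 (-0.41), Parp9 (-0.30), Dtx3l (-0.07), Nr4a1 (-0.39), Nfkb1 (-0.11), Bcl3 (-0.23), Ptpn22 (-0.13), Nck1 (-0.25) and Ly6c1 (-0.24), and at 10 TPM for Gbp8 (0.04), Rtp4 (0.06) and Bcl6 (0.04). Il2 and Il3 rest on 10 to 17 reads per ex vivo cKO library.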
